A study of Drosophila melanogaster with 62 samples.

Results

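The comparison described here sets fat bodies of FOXO RNAi larvae against fat bodies of p53 RNAi larvae, both reared on a high-sugar food with 0.7 M sucrose, across all measured genes. It uses 8 of the 61 libraries of the deposited table, 4 labelled FOXO RNAi and 4 labelled p53 RNAi, chosen by the labels alone. All were female Drosophila melanogaster at the wandering stage that ends larval life, and all carried the GAL4 driver r4, which is active in the fat body, together with a UAS-Dcr2 transgene on the X chromosome that raises the dose of Dicer-2. The driver stock was crossed to stock 106097 of the Vienna collection (VDRC) for FOXO RNAi and to stock 103001 for p53 RNAi, so each gene was targeted by a single RNAi line. Larvae of the same driver crossed to stock 60100 without a hairpin (control) or to stock 106980 (Stat92E RNAi), with 4 libraries each at 0.7 M, gave reference levels. The same crosses on food with 0.15 M sucrose, the control diet, gave 4 libraries for FOXO RNAi and 3 for p53 RNAi. Because both arms carried the driver, the Dicer-2 transgene and a hairpin, the comparison addresses differences between the lines beyond what any RNAi line would share. Fat bodies were floated, that is, sheared from the larvae and separated by centrifugation, and total RNA depleted of ribosomal RNA was sequenced.

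The larval fat body stores triglyceride, glycogen and protein, secretes serum and immune proteins into the hemolymph, and senses nutrients for the whole animal. FOXO is a forkhead transcription factor that insulin signalling holds out of the nucleus through Akt. When insulin signalling is low it enters the nucleus and activates genes of stress resistance, growth restraint and fuel mobilisation. p53 is a transcription factor activated by DNA damage and other stress, with roles in cell death, repair and the response to nutrient shortage.

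Values are FPKM (fragments per kilobase of transcript, relative to library depth) that had been scaled so that the same number of genes, within 1, reached a value of 1 in every library. Differences are given on the log2 scale of scaled FPKM plus 1, as the value in the libraries labelled FOXO RNAi minus that in the libraries labelled p53 RNAi, with a standard error (SE), and "higher" and "lower" refer to that order. A gene was called where the adjusted p was under 0.05. The summed values of the 8 libraries ran from 40335.5 to 66270.0 and 7131 to 9108 genes were above 0. By estimate, a transcript 1 kb long reached the value 1 with 8.43 to 22.9 fragments. FOXO RNAi library 2 stood apart as the deepest (22.9), with the lowest sum (40335.5), and it was the only one of the 8 in which the storage protein gene Lsp2, in place of the odorant-binding protein gene Obp99b, was the most abundant. The 10 fat body markers summed to between 6500 and 7830 in the FOXO RNAi libraries and between 6760 and 8110 in the p53 RNAi libraries, so the tissue label held in every library. In bulk tissue, fewer cells of a type and less RNA per cell cannot be told apart.

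The targeted transcripts were low in all libraries. Scaled FPKM of foxo was 0.218, 0.206, 0.241 and 0.141 in the libraries labelled FOXO RNAi and 0.214, 0.126, 0.222 and 0.174 in those labelled p53 RNAi, values that rested on an estimated 7.2 to 19.0 fragments. The groups overlapped, and the foxo transcript was not lower in the FOXO RNAi libraries (mean 0.202 ± 0.0426 SD against 0.184 ± 0.044, n = 4 each, exact two-sided permutation p = 0.57). The control mean was 0.310. Direction is therefore given below for libraries by their labels.

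The p53 transcript measured 0.444, 0.638, 0.443 and 0.492 in the libraries labelled FOXO RNAi and 0.161, 0.142, 0.164 and 0.0939 in those labelled p53 RNAi. The groups did not overlap (exact two-sided permutation p = 0.029, the smallest that 4 against 4 libraries allow), on an estimated 2.6 to 31 fragments. The control mean of p53 was 0.226, between the means of the RNAi groups (0.504 and 0.140).

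A pair of genes that the crosses themselves carry in altered form also differed. The eye-pigment transporter gene white, the usual visible marker of fly transgenes, measured 26.6, 35.3, 26.5 and 23.6 in the FOXO RNAi libraries and 10.8, 9.45, 10.4 and 10.4 in the p53 RNAi libraries, a difference of 1.35 ± 0.14 (SE, adjusted p = 4.91e-08). Its means were 3.6 in control and 17.3 in Stat92E RNAi, so its level was not shared by the RNAi lines. Dcr-2 measured 6.01, 21.1, 6.72 and 3.88 against 3.40, 4.12, 3.78 and 2.61. Its groups overlapped, its highest value was that of FOXO RNAi library 2, and its call (0.98 ± 0.39, adjusted p = 0.0483) was lost under 10 of 16 alternatives, including the fit without that library. The part of the Dcr-2 and white differences in the results was not tested.

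Of 2521 genes tested, 1030 (40.9%) were called between the lines, 381 higher (15.1%) and 649 lower (25.7%) in the libraries labelled FOXO RNAi. Of the called genes, 82 were more than 2-fold higher and 71 more than 2-fold lower. In 926 genes (36.7%) the libraries of the groups did not overlap, and 802 of these were also called. The median difference over all tested genes was -0.13, and library rescaling by median ratios moved it to -0.003, by more than 0.1, so differences are best read against that shift. After rescaling, 967 genes were called, 527 higher (20.9%) and 440 lower (17.5%), and the majority of calls turned from lower to higher.

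**Figure D1:**
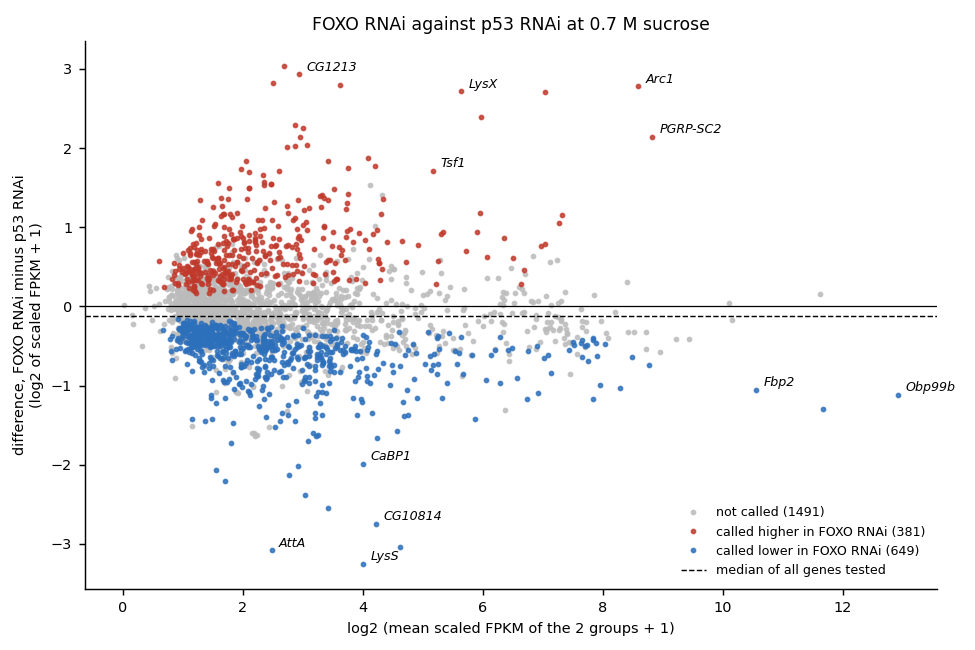
Each point is 1 of the 2521 tested genes, with its mean level on the x axis (log2 of scaled FPKM plus 1) and the difference, FOXO RNAi minus p53 RNAi at 0.7 M, on the y axis (log2). Red points are the 381 genes called higher, blue points the 649 called lower and grey points the rest, and the dashed line marks the median difference of -0.13.

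The 15 largest rises included transporter, immune and stress genes and an RNA-carrying capsid gene. That gene, Arc1, encodes a retrotransposon-derived protein whose capsids carry RNA between cells at fly synapses, and it measured 622, 782, 690 and 580 in the FOXO RNAi libraries and 98, 81.2, 88.8 and 119 in the p53 RNAi libraries. No library overlapped, the difference was 2.78 ± 0.17 (adjusted p = 2.68e-12), and the means in control (89.6) and Stat92E RNAi (112) were near the p53 RNAi level. CG10102, annotated in RefSeq as a related pseudogene (synonym Arc3), moved with it, with a mean of 226 ± 46 (SD) against 33.8 ± 7.27. Reads may be shared between these related sequences.

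CG1213, a member of the sugar transporter family, measured 12.0, 14.2, 10.7 and 13.3 in the FOXO RNAi libraries and 0.793, 0.972, 0.561 and 0.783 in the p53 RNAi libraries (2.93 ± 0.09, adjusted p = 5.69e-19). The control mean was 0.227, and at 0.15 M the FOXO RNAi mean was only 0.455. CG11898, an ABC transporter gene, measured 8.11, 12.0, 8.58 and 6.99 against 0.417, 0.259, 0.403 and 0.460. Both transporters were separated from p53 RNAi in every library, as their choice required, and the second differed by 2.82 ± 0.14 (adjusted p = 5.03e-14).

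CG7298 had the largest of these rises (3.04 ± 0.29, adjusted p = 1.04e-08) and the least even one. It measured 4.48, 27.8, 4.06 and 6.84 in the FOXO RNAi libraries, with library 2 far above the others, and 0.118, 0.0732, 0 and 0.138 in the p53 RNAi libraries. At 0.15 M it was listed at 0 in all 4 FOXO RNAi libraries. The filter on low values took the mean over the 31 libraries, to which its high FOXO RNAi values at 0.7 M contributed. Like CG11898, it was tested under 15 alternatives, where the other genes named at 0.7 M had 16. CG15347 (20.6 ± 4.78 against 2.08 ± 0.380, SD), CG13877 (11.7 ± 1.74 against 1.87 ± 0.214) and CG13840 (12.5 ± 1.75 against 2.31 ± 0.644) were also higher without overlap.

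Several of the largest rises were in immune and stress genes. PGRP-SC2, a secreted amidase that degrades peptidoglycan, measured 674, 802, 746 and 715 in the FOXO RNAi libraries and 169, 128, 182 and 188 in the p53 RNAi libraries (2.14 ± 0.29, adjusted p = 2.22e-06), with a control mean of 84.9. The lysozyme gene LysX measured 72.8, 132, 74.9 and 64.3 against 11, 14.3, 10 and 12.0, and its control mean was 1.27. LysX thus stood above control in both lines, by 5.21 in FOXO RNAi (adjusted p = 9.16e-13) and by 2.50 in p53 RNAi (adjusted p = 9.39e-06), and the lysozyme genes have close copies among which reads may be split. These comparisons with control share the control libraries. Across all genes, 26.8% were called in FOXO RNAi against control (9.76% higher, 17.0% lower) and 12.3% in p53 RNAi against control (4.6% higher, 7.74% lower).

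TotC, a secreted stress protein of the Turandot family, measured 79.5, 168, 68.9 and 102 against 20.6, 16.2, 23.7 and 13.2 (2.39 ± 0.53, adjusted p = 0.00108). Its mean was 11.3 in control and 0.222 in Stat92E RNAi, the line in which its known activator was targeted. CG33462, a serine protease-like gene, showed the same order of groups, with means of 12.3, 1.73, 1.36 and 0.0654 in FOXO RNAi, p53 RNAi, control and Stat92E RNAi.

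The remaining genes among the 15 largest rises were CG18522, an aldehyde oxidase gene (RefSeq AOX1), CG5853, an ABC transporter gene, and Rpd3, the class I histone deacetylase HDAC1. Rpd3 measured 10.2, 11.4, 11.2 and 6.42 in the FOXO RNAi libraries and 1.81, 1.47, 1.75 and 1.44 in the p53 RNAi libraries, 2.02 ± 0.16 apart (adjusted p = 5.30e-10). CG18522 differed by 2.29 ± 0.16 and CG5853 by 2.03 ± 0.16, both without overlap, as the choice required. For all 15 genes the control mean and the Stat92E RNAi mean lay nearer to the p53 RNAi mean than to the FOXO RNAi mean on the log2 scale. For the 15 largest falls this held for 11 genes with control and for 10 with Stat92E RNAi. The rises were chosen for high FOXO RNAi levels relative to p53 RNAi, which favours that order, so these counts are descriptions.

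**Figure D2:**
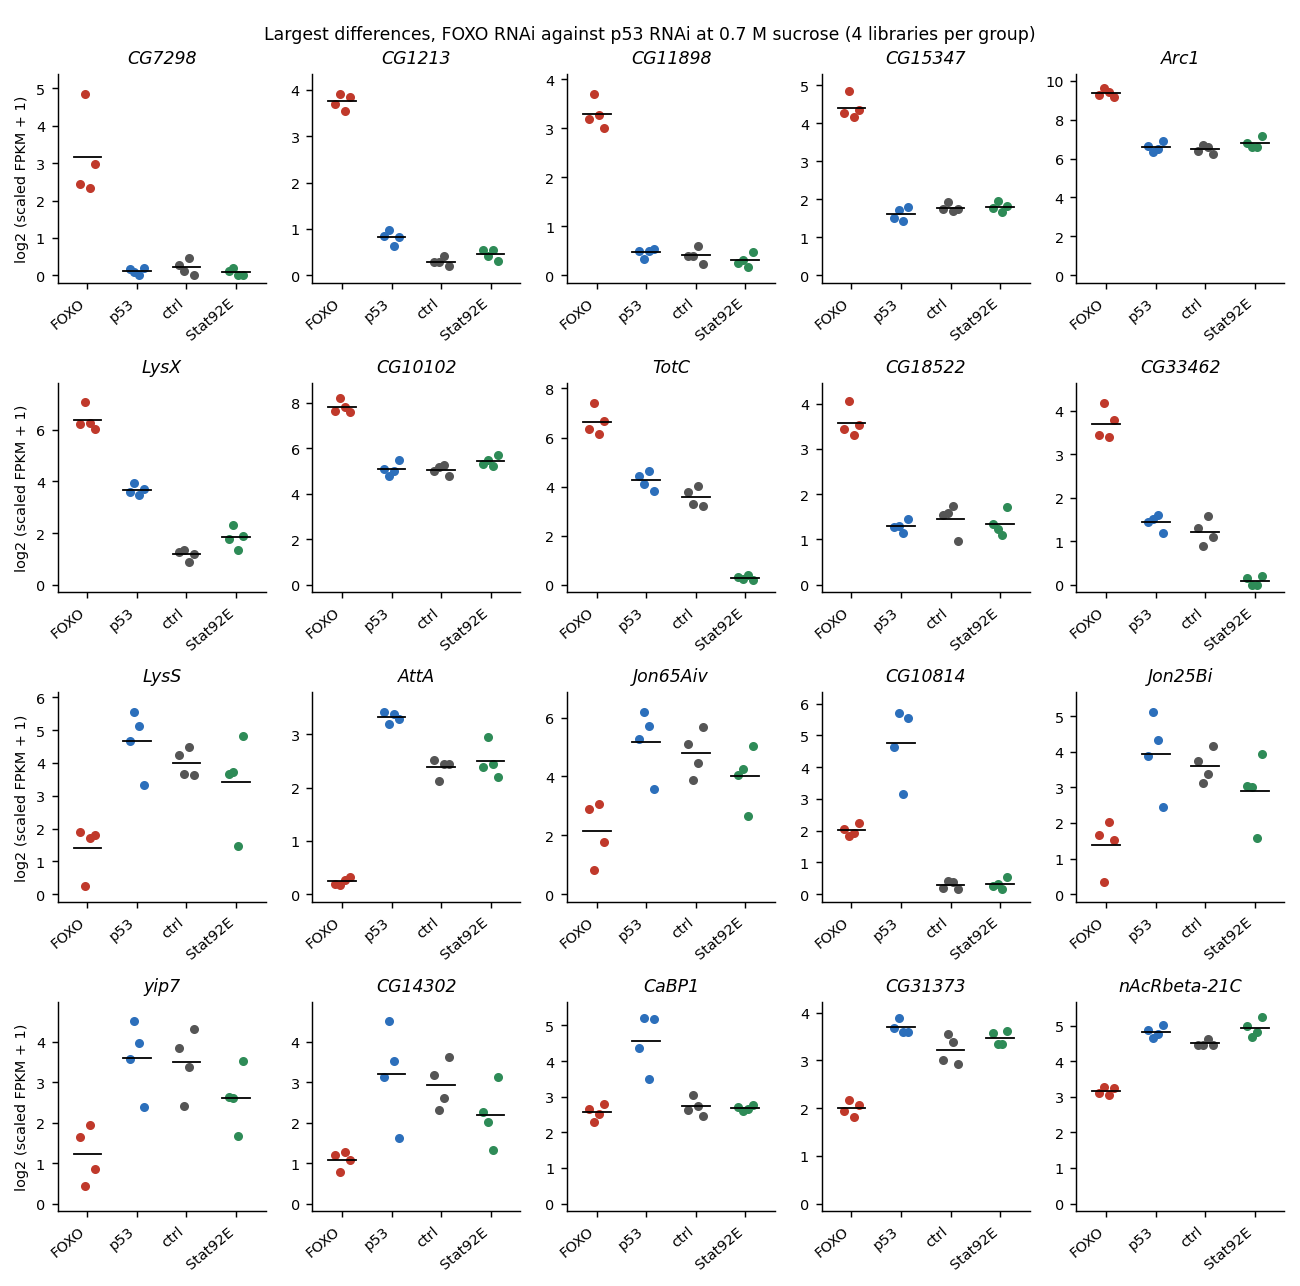
Each panel is 1 gene, the 10 with the largest differences called higher and the 10 called lower, with 1 dot per library (log2 of scaled FPKM plus 1) in the FOXO RNAi, p53 RNAi, control and Stat92E RNAi groups at 0.7 M, and a line at each group mean. The choice required no overlap, so the FOXO RNAi dots lie apart from the p53 RNAi dots in every panel. In each of the 10 panels of genes called higher the control and Stat92E RNAi means lie nearer to the p53 RNAi mean. The choice of large rises favours that order.

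Among the largest falls were digestive enzymes of the midgut, and their libraries shared 1 pattern. LysS, a midgut lysozyme gene, measured 2.69, 0.198, 2.3 and 2.46 in the FOXO RNAi libraries and 24.4, 45.6, 33.9 and 8.99 in the p53 RNAi libraries (-3.25 ± 0.80, adjusted p = 0.00267). Jon65Aiv, a serine protease of the Jonah family, measured 6.49, 0.772, 7.35 and 2.41 against 37.2, 72.5, 50.9 and 10.9 (-3.04 ± 0.89, adjusted p = 0.00894). In both genes FOXO RNAi library 2 was lowest, p53 RNAi library 2 was highest and p53 RNAi library 4 was the lowest of its group.

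The same held for the Jonah protease gene Jon25Bi (-2.55 ± 0.78) and for the serine protease gene yip7 (-2.38 ± 0.73). CG14302 (-2.12 ± 0.72) kept that order too, but its call was lost without FOXO RNAi library 2, without p53 RNAi library 2 and with the length trend removed. These genes have near-identical relatives among which reads may be split. The list of 20 gut markers as a whole summed to 114 to 187 in the FOXO RNAi libraries and 151 to 186 in the p53 RNAi libraries. Of its 12 tested members 1 was called higher (LysX) and 3 lower (Jon65Aiv, Jon25Bii and alphaTry). Neither share was above that over all tested genes (15.1% higher, 25.7% lower). The count of gut markers lower was 1 without FOXO RNAi library 2 or 4, without p53 RNAi library 1, 2 or 3 and with no filter on low values. Jon65Aiv was lost under none of the 16 alternatives, Jon25Bii under 6 and alphaTry under 10. Jon44E was listed at 0 in all 8 libraries, and the part of gut RNA in these differences was not tested.

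A second set of falls was in genes that stood above control in p53 RNAi. CG10814, which RefSeq gives the synonym gamma-BBH for gamma-butyrobetaine hydroxylase, an enzyme of carnitine synthesis, measured 23.6, 51.5, 7.96 and 45.5 in the p53 RNAi libraries and 3.13, 2.59, 2.81 and 3.69 in the FOXO RNAi libraries (-2.75 ± 0.30, adjusted p = 8.32e-08). Both lines stood above control, whose mean was 0.224, by 1.73 in FOXO RNAi (adjusted p = 6.66e-05) and by 4.47 in p53 RNAi (adjusted p = 7.01e-11). At 0.15 M the means were 0.0748 in FOXO RNAi and 0.200 in p53 RNAi.

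CaBP1, a protein disulfide isomerase of the endoplasmic reticulum, measured 19.4, 35.8, 10.3 and 35.1 in the p53 RNAi libraries, in the same order of libraries as CG10814, and 5.30, 3.93, 4.73 and 5.94 in the FOXO RNAi libraries (-1.99 ± 0.24, adjusted p = 5.74e-07). Its level in FOXO RNAi was close to that in control (mean 5.69, difference -0.16, adjusted p = 0.67), and its level in p53 RNAi was 1.83 above control (adjusted p = 1.98e-05). CG5321, which carries the same RefSeq synonym as CG10814, measured 2.62, 2.39, 2.39 and 4.07 in FOXO RNAi against 8.58, 10.8, 6.01 and 13.8 in p53 RNAi, with a control mean of 3.40. In all 3 genes p53 RNAi library 3 was the lowest of its group.

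In another set the FOXO RNAi libraries stood below control. AttA, an attacin against Gram-negative bacteria, measured 0.136, 0.130, 0.203 and 0.252 against 9.66, 8.16, 9.41 and 8.75 (-3.08 ± 0.26, adjusted p = 1.16e-09), with a control mean of 4.25. The neuroendocrine chaperone gene 7B2 measured 10.5, 10.9, 9.63 and 12.6 against 34.4, 34.3, 30.7 and 38.1 (-1.57 ± 0.17, adjusted p = 7.66e-08), with a control mean of 32.4. The acetylcholine receptor subunit gene nAcRbeta-21C (8.02 ± 0.661 against 27.5 ± 3, SD) and CG31373 (3.01 ± 0.416 against 12.0 ± 1.24) were likewise separated in every library, as their choice required. All 4 genes were called below control in FOXO RNAi, by differences of -2.15, -1.48, -1.33 and -1.22 in the order given, and AttA was also called above it in p53 RNAi (0.93).

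Genes of the insulin and FOXO pathway were counted next. Of 28 genes on the list 9 passed the filter on low values. Of these 4 were called higher and none lower, beside 15.1% higher and 25.7% lower over all tested genes. Their median difference was 0.39 beside -0.13 over all tested genes. ImpL2, a secreted protein that binds insulin-like peptides and restrains their action, measured 7.03, 7.95, 7.63 and 4.16 in the libraries labelled FOXO RNAi and 1.73, 1.21, 1.81 and 1.46 in those labelled p53 RNAi. The groups did not overlap and the difference was 1.57 ± 0.17 (adjusted p = 6.20e-08), with ImpL2 also above control in FOXO RNAi (1.29, adjusted p = 1.09e-06).

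Lip4, a lipase gene used as a FOXO target in flies, measured 6.23, 11.6, 6.56 and 7.25 against 4.33, 3.91, 4.16 and 4.33 (0.74 ± 0.18, adjusted p = 0.00277). CG11299 (RefSeq Sesn), a sestrin that restrains TOR, differed by 0.48 ± 0.14, and GRHR (RefSeq AkhR), the receptor of the fat-mobilising adipokinetic hormone, by 0.43 ± 0.10. The last 2 calls were lost when a trend of the difference on transcript length was removed, which left 2 of 9 called higher. Thor, the 4E-BP translation inhibitor and the best known FOXO target of flies, was looked at after its values were seen. Its means were 24.3 ± 4.30 (SD) and 24.1 ± 5.28, a difference of 0.02 ± 0.23 (adjusted p = 0.94), and its sign was not stable.

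The trend on length was itself a difference between the groups. For it, log2 values were taken relative to each gene's mean over the libraries fitted. Their slope on log2 transcript length ran from -0.058 to 0.200 among the FOXO RNAi libraries and from -0.127 to -0.102 among the p53 RNAi libraries. Longer transcripts thus stood higher in the first group relative to the second.

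On the p53 and DNA damage list 4 of 32 genes passed the filter, 2 were called higher and 1 lower, and the median difference was 0.35. The shares over all tested genes were 15.1% higher and 25.7% lower. Xrp1, a bZIP factor of the DNA damage and cell stress response that p53 can activate, measured 4.93, 8.22, 4.94 and 2.45 in the FOXO RNAi libraries and 1.40, 1.04, 1.41 and 1.18 in the p53 RNAi libraries (1.36 ± 0.26, adjusted p = 0.000262). The control mean was 3.02, and neither line differed from control past the threshold (adjusted p = 0.0738 and 0.0655). The TNF ligand gene egr measured 1.55, 4.49, 1.94 and 1.00 against 0.651, 0.683, 0.651 and 0.470 (0.90 ± 0.24, adjusted p = 0.00517). The effector caspase gene Ice was lower (-0.21 ± 0.07, adjusted p = 0.0148), a call lost on rescaling.

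Lipid synthesis and storage genes that were called were higher, and the other tested members did not pass. On the fatty acid synthesis list 5 of 10 tested genes were called higher, with a median difference of 0.43. On the triglyceride and lipid droplet list 5 of 9 were, with a median of 0.63. The share called higher over all tested genes was 15.1%. Zw, the glucose-6-phosphate dehydrogenase that supplies NADPH, measured 9.47, 6.81, 9 and 8.26 in the FOXO RNAi libraries and 3.09, 2.22, 2.67 and 3.6 in the p53 RNAi libraries. The groups were apart by 1.27 ± 0.16 (adjusted p = 1.10e-06), and the p53 RNAi mean of 2.90 was close to the control mean of 2.89.

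The other lipogenic genes had a different relation to control. CG3523 (RefSeq FASN1), the fatty acid synthase, measured 5.11, 5.74, 5.53 and 3.27 against 2.56, 1.35, 2.37 and 2.77 (0.86 ± 0.25, adjusted p = 0.00898), and its control mean was 5.75. Its difference from control was -0.15 in FOXO RNAi (adjusted p = 0.69) and -1.01 in p53 RNAi (adjusted p = 0.0111). The fatty acid desaturase gene desat1 measured 20.7, 23.2, 22.6 and 20.6 against 15.7, 9.60, 15.2 and 16.8 (0.60 ± 0.19, adjusted p = 0.0140), a call lost without p53 RNAi library 2 (adjusted p = 0.0729). Its difference from control was -0.40 in FOXO RNAi (adjusted p = 0.12) and -1 in p53 RNAi (adjusted p = 0.00137). For both genes the called difference from control was thus in the p53 RNAi line.

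AcCoAS, the acetyl-CoA synthase (0.54 ± 0.21, adjusted p = 0.0420), and Idh, the NADP-linked isocitrate dehydrogenase (0.35 ± 0.12, adjusted p = 0.0260), were higher by less. The first was lost under 8 of 16 alternatives, and the second without FOXO RNAi library 2, without p53 RNAi library 4 and with the length trend removed. Of the 10 fatty acid genes 3 were called higher without p53 RNAi library 2, and 2 with the length trend removed, where the call of CG3523 was among those lost.

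On the triglyceride and lipid droplet list 4 genes were called higher with that trend removed. Lsd-2, the perilipin that shields stored fat from lipases, measured 8.31, 11.2, 9.46 and 6 against 3.58, 3.68, 3.82 and 2.92 (1.09 ± 0.18, adjusted p = 5.77e-05), and Lsd-1, the perilipin that admits lipases to the droplet, 82.5, 75, 86.6 and 77.9 against 59.5, 37.3, 56.5 and 56.8 (0.63 ± 0.14, adjusted p = 0.000836). CG4729 (RefSeq Agpat3), an acyltransferase of glycerolipid synthesis, had means of 4.59 ± 0.629 and 1.98 ± 0.290 (SD), and CG8709 (RefSeq Lpin), the lipin phosphatase that makes diacylglycerol, 1.87 ± 0.386 and 0.703 ± 0.113. Both enzymes were called above control in FOXO RNAi (0.45 and 0.37) and below it in p53 RNAi (-0.46 and -0.38), with control means of 3.15 and 1.24. Gpdh, the glycerol-3-phosphate dehydrogenase, was higher by 0.78 ± 0.24 (adjusted p = 0.0110) although FOXO RNAi library 2 (3.74) lay within the p53 RNAi range, and its call was lost with the length trend removed.

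Genes of lipid breakdown did not share 1 direction. Of 17 tested lipase and fatty acid oxidation genes 4 were called higher and 1 lower (median 0.06), with 7 higher after rescaling and 2 with the length trend removed. Of all tested genes 15.1% were higher and 25.7% lower, and 20.9% were higher after rescaling. The acyl-CoA oxidase gene Acox57D-p was higher, 3.16, 4.87, 2.97 and 2.99 against 1.73, 1.73, 1.48 and 1.87 (0.72 ± 0.11, adjusted p = 2.77e-05). CG4586, also an acyl-CoA oxidase gene, was lower, 4.84, 3.75, 4.56 and 7.34 against 10.1, 9.83, 9.64 and 11 (-0.89 ± 0.19, adjusted p = 0.000854).

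Among 9 tested genes of sugar sensing and nutrient hormones 3 were called higher and 2 lower. Those higher were sugarbabe and also ImpL2 and egr, which were counted on the lists above. For this and the next lists, the shares over all tested genes were 15.1% higher and 25.7% lower. CG14375 (RefSeq CCHa2), a peptide hormone that the fat body sends to the brain in response to sugar, measured 5.65, 4.23, 5.69 and 4.83 against 13.1, 9.61, 12.2 and 12.9 (-1.09 ± 0.13, adjusted p = 7.01e-07). CG11395 (RefSeq Gbp2), a growth-blocking peptide, was lower by a similar amount (-0.82 ± 0.14, adjusted p = 7.77e-05). The sugar-induced transcription factor gene sugarbabe was higher, 4.98, 5.96, 5.96 and 4.18 against 3.13, 2.06, 2.91 and 3.41 (0.70 ± 0.21, adjusted p = 0.0106). Of 11 tested glycolysis genes 1 was called higher, and of 13 for gluconeogenesis, trehalose and glycogen 1 was higher and 3 lower, or 3 higher and none lower after rescaling. Without FOXO RNAi library 2 or p53 RNAi library 4 only 1 of the last list was lower.

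Genes of metal proteins rose in part, and those of storage proteins were mixed. Of 9 serum protein genes 4 were called higher (Tsf1, Lsp1alpha, Fer2LCH and Fer1HCH) and 1 lower (Fbp2). Of 7 tested metal-handling genes 5 were higher and none lower, with a median of 0.73. Tsf1 and both ferritin genes are counted on both lists, so the counts are not separate. The shares over all tested genes were 15.1% higher and 25.7% lower. Tsf1, the iron carrier transferrin, is on both lists and measured 51.8, 50.7, 47.1 and 64.5 in the FOXO RNAi libraries and 18.7, 8.49, 17.2 and 21.1 in the p53 RNAi libraries (1.71 ± 0.26, adjusted p = 1.75e-05). The control mean was 38.1, and the difference of Tsf1 from control was -1.22 in p53 RNAi (adjusted p = 0.00350) and 0.49 in FOXO RNAi (adjusted p = 0.17).

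For the ferritin subunit genes the called difference from control was in FOXO RNAi (0.81 for Fer1HCH, 1.02 for Fer2LCH). Fer1HCH, the heavy chain, measured 61.2, 75.7, 58.9 and 61.7 against 38.4, 37.7, 35.3 and 45.9 (0.70 ± 0.10, adjusted p = 1.33e-05), with a control mean of 36.2. Fer2LCH, the light chain, measured 46.4, 76.4, 47.3 and 38.2 against 28.2, 19.6, 23.0 and 34.9 (0.94 ± 0.21, adjusted p = 0.00109), with a control mean of 25.0. The metal ion transporter gene Mvl (0.80 ± 0.13) and the copper importer gene Ctr1B (0.73 ± 0.20) completed the metal genes called.

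Lsp1alpha, a larval serum protein stored for metamorphosis, measured 225, 254, 238 and 159 against 114, 65.1, 116 and 99.8 (1.16 ± 0.24, adjusted p = 0.000570). Both lines were called below the control mean of 438, with differences of -0.91 in FOXO RNAi and -2.07 in p53 RNAi. The fat body protein gene Fbp2 went the other way, with means of 982 ± 186 (SD) and 2014 ± 82.1 (-1.05 ± 0.16, adjusted p = 1.15e-05). Obp99b, the most abundant transcript in 7 of the 8 libraries, was lower too, with 5324, 2986, 4819 and 6909 against 11150, 8895, 10400 and 11260 (-1.11 ± 0.21, adjusted p = 0.000253). The leading gene took 8.2% (Lsp2 in library 2) to 12.3% of the summed values in the FOXO RNAi libraries and 16.3% to 17.0% in the p53 RNAi libraries.

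Among the immune genes, 6 of 9 tested antimicrobial peptide genes and 5 of 9 Toll-induced peptide genes were called lower and none higher (medians -1.07 and -1.31), and the others did not pass. The share called lower over all tested genes was 25.7%. Without FOXO RNAi library 2 and with library weights 5 antimicrobial genes were lower and 1 higher, and with the length trend removed 4 were lower and 1 higher. The higher gene was Drs, the antifungal drosomycin, in each case. After rescaling 3 Toll-induced genes were lower. AttB measured 0.128, 0.153, 0.186 and 0.169 in the FOXO RNAi libraries and 4.65, 3.87, 4.61 and 4.34 in the p53 RNAi libraries (-2.21 ± 0.21, adjusted p = 1.04e-08), and AttA and AttB are near copies among which reads may be split. Dro, encoding drosocin, was listed at 0 in 3 FOXO RNAi libraries and at 0.541 in the other, against 3.98, 2.34, 4.28 and 4.46 (adjusted p = 2.77e-05).

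Mtk, the antifungal metchnikowin, measured 2.61, 1.57, 3.79 and 2.95 against 9.22, 8.42, 11.6 and 5.61 (-1.38 ± 0.37, adjusted p = 0.00477), a call lost with the length trend removed (adjusted p = 0.0507). DptB, a diptericin, measured 2.80, 0.712, 2.61 and 1.19 against 4.33, 5.54, 3.77 and 4.92 (-1.06 ± 0.24, adjusted p = 0.00113). For DptB the called difference from control was in p53 RNAi (1.33, adjusted p = 0.000846) and not in FOXO RNAi (0.27, adjusted p = 0.44), while AttA and AttB were called on both sides of control, below it in FOXO RNAi and above it in p53 RNAi. Of the Toll-induced peptides, IM3 measured 4.13, 4.56, 3.75 and 4.38 against 11.8, 10.2, 14.7 and 12.4 (-1.34 ± 0.40, adjusted p = 0.00984), and CG16836 (RefSeq BomT2, a bomanin) had means of 3.54 ± 0.890 and 13.1 ± 2.67 (SD). CG33470 and IM10 (RefSeq BaraA1 and BaraA2) were lower in step (-1.63 and -1.60, with an SD of their log2 ratio of 0.02), so they count as 1 measurement.

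Of the recognition and signalling genes, 9 of 16 tested members were called higher and 2 lower (median 0.29), beside 15.1% and 25.7% over all tested genes. PGRP-SC1a, an amidase gene with a near-identical copy, measured 3.28, 3.12, 3.56 and 3.74 against 0.928, 0.743, 1.17 and 1.08 (1.16 ± 0.19, adjusted p = 3.49e-05). PGRP-SA, a receptor of the Toll pathway, measured 19.7, 19.8, 18.3 and 22.4 against 10.8, 10, 10.4 and 11.7 (0.84 ± 0.13, adjusted p = 2.05e-05). The serpin gene nec, an inhibitor of Toll activation, was higher by 0.86 ± 0.19, and PGRP-SD, a further recognition protein, was lower (-0.90 ± 0.17, adjusted p = 0.000206). Of 5 tested JAK/STAT and Turandot genes 2 were called higher, TotC and the thioester protein gene TepII (1.02 ± 0.27, adjusted p = 0.00481).

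Of 23 tested genes for enzymes of amino acid and one-carbon metabolism 11 were called lower, 1 higher and 11 did not pass (median -0.54). The shares over all tested genes were 25.7% lower and 15.1% higher. The folate enzyme gene pug measured 17.5, 6.44, 17.7 and 18.2 in the FOXO RNAi libraries and 35.9, 28.1, 31.1 and 39.8 in the p53 RNAi libraries (-1.21 ± 0.23, adjusted p = 0.000229). The serine synthesis gene CG11899 measured 9.85, 6.20, 9.58 and 9.12 against 19.4, 23.8, 18.6 and 20.3 (-1.17 ± 0.18, adjusted p = 2.24e-05). In both genes FOXO RNAi library 2 was the lowest of all, and the count fell to 7 lower without it or without p53 RNAi library 1.

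Of the enzymes that carry sulfur from methionine to cysteine, CG1753 (RefSeq Cbs, cystathionine beta-synthase) had means of 1.21 ± 0.220 and 3.26 ± 0.279 (SD; -0.95 ± 0.13 SE, adjusted p = 3.98e-06) and Eip55E, cystathionine gamma-lyase, 14.3 ± 5.83 and 27.4 ± 4.93 (-0.99 ± 0.21, adjusted p = 0.000789; -0.64 without FOXO RNAi library 2). CG6188 (RefSeq Gnmt, glycine N-methyltransferase), which consumes S-adenosylmethionine, measured 18.2, 5.75, 14 and 34.5 against 34.3, 27.8, 33.9 and 35.8. Its groups overlapped and its call (adjusted p = 0.0273) was lost under 5 of 16 alternatives.

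The secretory pathway was the list with the most members called in 1 direction, 20 of 29 tested genes lower and none higher. The share lower over all tested genes was 25.7%. The median of the list was -0.40 beside -0.13 over all genes. After rescaling 14 were lower and 1 higher, with 17.5% of all tested genes lower. TRAM, a protein of the translocation channel, measured 7.28, 5.55, 6.30 and 8.96 against 13.0, 12.6, 12.4 and 13.9 (-0.81 ± 0.14, adjusted p = 5.94e-05), CHOp24, a cargo receptor of transport vesicles, 9.99, 7.37, 8.62 and 14.5 against 17.9, 18.0, 16.3 and 21.1 (-0.83 ± 0.20, adjusted p = 0.00240), and sec13, a vesicle coat protein, 6.67, 4.85, 6.84 and 8.58 against 11.1, 10.5, 9.78 and 13.5. The coat gene zetaCOP differed by -0.93 ± 0.27, with overlap. In TRAM, CHOp24 and sec13 library 2 was the lowest and library 4 the highest of the FOXO RNAi libraries.

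Endoplasmic reticulum chaperones followed in smaller numbers, 8 of 16 tested lower and 1 higher (4 and 2 after rescaling). The count lower was 4 without p53 RNAi library 4, and 5 without FOXO RNAi library 2 or p53 RNAi library 1. Xbp1, the transcription factor of the unfolded protein response, measured 13.6, 10.5, 12.6 and 13.8 against 20.5, 14.6, 19.1 and 22.2 (-0.55 ± 0.15, adjusted p = 0.00437), and the translocon subunit gene Sec61gamma 2.82, 2.17, 2.98 and 3.02 against 5.14, 4.57, 4.43 and 5.69 (-0.67 ± 0.15, adjusted p = 0.00110). Of 32 proteasome subunit genes 7 were called lower and 1 higher, and of 25 translation factor and tRNA synthetase genes 8 lower and none higher, shares near the background of 25.7% lower. After rescaling, 4 proteasome genes were lower and 5 higher, so that direction turned, and 3 translation genes were lower and 1 higher. On leaving out 1 library the proteasome count lower was 4 without FOXO RNAi library 2 and 11 without FOXO RNAi library 4. The translation count lower was 4 without FOXO RNAi library 2 or p53 RNAi library 1, and 5 without p53 RNAi library 2 or 4.

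The 81 cytosolic ribosomal protein genes had no direction that held. As deposited, 18 were called lower and 3 higher (median -0.32), but after rescaling 6 were lower and 9 higher. Over all tested genes 25.7% were lower and 15.1% higher as deposited, and 17.5% lower and 20.9% higher after rescaling. None was called lower without FOXO RNAi library 2, 3 without p53 RNAi library 4 and 31 without FOXO RNAi library 4, and the count was 9 without FOXO RNAi library 3 and 8 without p53 RNAi library 1. Of 33 respiratory chain and ATP synthase genes 2 were called in each direction, and 7 were lower without FOXO RNAi library 4.

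Detoxification genes were mixed as families and clear for single members. Of 23 tested cytochrome P450 genes 5 were higher and 4 lower. Of 20 glutathione transferase and antioxidant genes 6 were higher and 2 lower, the latter none after rescaling. The shares over all tested genes were 15.1% higher and 25.7% lower. The P450 genes lower were 2 without FOXO RNAi library 2 or p53 RNAi library 4 and 8 without FOXO RNAi library 4. Cyp6d5 measured 8.33, 5.67, 8.24 and 6.56 against 2.16, 2.92, 2.03 and 1.96 (1.32 ± 0.17, adjusted p = 1.22e-06), and Cyp9b2 13.7, 25.8, 12.4 and 19.1 against 6.96, 5.46, 5.93 and 8.72 (1.23 ± 0.21, adjusted p = 8.18e-05). Both P450 genes were separated in every library. The glutathione transferase gene GstE9 had means of 18.0 ± 1.76 and 6.68 ± 0.568 (SD; 1.3 ± 0.18 SE, adjusted p = 3.39e-06), GstD1 of 156 ± 6.51 and 92.3 ± 14.8, and the peroxiredoxin gene Jafrac1 of 9.82 ± 2.07 and 4.25 ± 0.412.

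Of 11 tested autophagy and lysosome genes 4 were higher and 2 lower, beside 15.1% higher and 25.7% lower over all tested genes. The autophagy receptor gene ref(2)P, whose mammalian counterpart is p62, measured 3.53, 6.73, 3.40 and 3 against 1.95, 1.36, 1.83 and 1.62 (0.89 ± 0.19, adjusted p = 0.000568). The cysteine protease gene Cp1 was higher (0.61 ± 0.13, adjusted p = 0.000781) and the aspartic protease gene cathD lower (-0.55 ± 0.11, adjusted p = 0.000507), so lysosomal proteases did not move together.

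**Figure D3:**
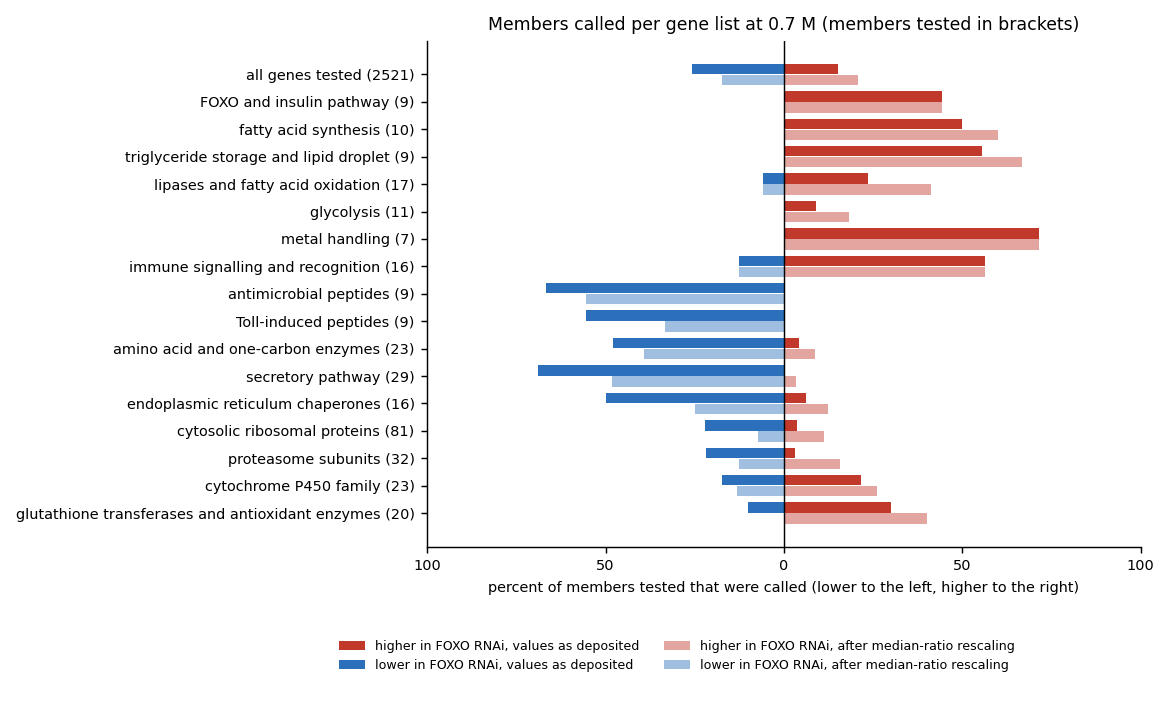
Bars give, for 16 gene lists and for all tested genes, the percent of tested members called higher (to the right) and lower (to the left) in FOXO RNAi against p53 RNAi at 0.7 M, dark for values as deposited and light after median-ratio rescaling. The secretory pathway (20 of 29 lower), one-carbon enzymes (11 of 23 lower), metal handling (5 of 7 higher) and triglyceride storage (5 of 9 higher) keep their direction under both scalings, and the ribosomal proteins and proteasome subunits do not.

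Markers of other cell types differed in part. The 13 hemocyte markers summed to 29.9 to 48.7 in the FOXO RNAi libraries and 24.4 to 29.0 in the p53 RNAi libraries. Over all tested genes 15.1% were called higher, and of 7 tested hemocyte markers 3 were. These were the type IV collagen genes Cg25C (1.01 ± 0.25, adjusted p = 0.00262) and vkg (0.94 ± 0.24, adjusted p = 0.00304) and the peroxidasin gene Pxn (0.67 ± 0.18, adjusted p = 0.00485), matrix genes that the fat body also expresses. He and lz were listed at 0 in all p53 RNAi libraries, and with the length trend removed none of the 7 was called higher and 3 were called lower. Beside the immune genes above, the part of hemocyte RNA was not tested.

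The neuron markers summed to 6.83 to 13.5 and 19.1 to 23.8, and nearly all of each sum was Syt1, the synaptotagmin gene, the only 1 of 10 that passed the filter (-0.96 ± 0.17, adjusted p = 9.69e-05). Of these markers brp and VGlut were listed at 0 in all 8 libraries. Muscle markers summed to 39.6 to 82.7 and 55.5 to 91.1, with none of 11 tested members called by limma. Salivary gland markers summed to 108 to 660 and 152 to 576, with FOXO RNAi library 2 the lowest of all and p53 RNAi library 2 the highest of its group. Of 8 tested salivary markers 1 was called higher, 3 after rescaling and 3 without FOXO RNAi library 2. Over all tested genes 15.1% were higher, and 20.9% after rescaling. Cuticle and epidermis markers summed to 249 to 468 and 174 to 420, with 1 of 6 tested members called higher. The part of RNA from these tissues was not tested.

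Fewer genes were called on the control diet, where 4 libraries stood against 3. At 0.15 M 228 of the 2521 genes (9.04%) were called, 103 higher (4.09%) and 125 lower (4.96%). In a direct test of the difference between the diets, 480 genes (19.0%) were called, 221 with a more positive contrast at 0.7 M (8.77%) and 259 with a more negative one (10.3%). With library weights, whose estimation stopped before convergence, the counts were 1635 at 0.15 M and 1617 at 0.7 M, so the order of the diets did not hold there. The count at 0.15 M was 146 without p53 RNAi library 1 of that diet. The count for the difference was 302 without FOXO RNAi library 1 and 253 without p53 RNAi library 3 at 0.15 M. The contrasts at the 2 diets share no library. Of the genes called, 111 were called the same way at both diets, 47 higher and 64 lower, which was 10.8% of the calls at 0.7 M and 48.7% of those at 0.15 M. Another 11 were called in opposite directions. Across the 2521 genes the contrasts had a Pearson r of 0.23 and a Spearman rho of 0.16, given as a description, since genes are not independent.

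**Figure D4:**
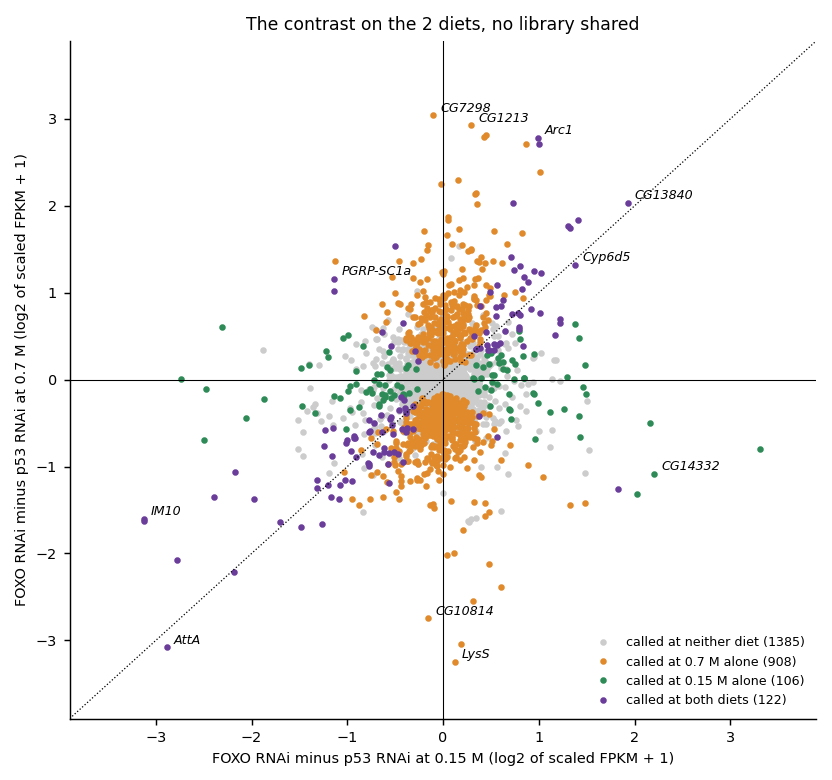
Each point is 1 of the 2521 tested genes, with the difference FOXO RNAi minus p53 RNAi at 0.15 M on the x axis and at 0.7 M on the y axis (log2 of scaled FPKM plus 1), coloured by the diet at which it was called. The 111 genes called the same way at both diets lie in the upper right and lower left, and many genes called only at 0.7 M lie close to 0 on the x axis.

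The genes called the same way on both diets included detoxification enzymes and antimicrobial peptides. CG13840 measured 6.26, 14.2, 5.76 and 7.95 in FOXO RNAi and 1.32, 1.20 and 1.62 in p53 RNAi at 0.15 M, a difference of 1.93 ± 0.26 beside 2.03 ± 0.24 at 0.7 M. CG14247 (1.41 ± 0.17 and 1.84 ± 0.15), CG14567 (1.31 ± 0.17 and 1.77 ± 0.16) and CG6018, an esterase gene (1.33 ± 0.20 and 1.75 ± 0.18), were higher at 0.15 M and 0.7 M respectively. Cyp6d5 (1.38 ± 0.18 at 0.15 M), Cyp9b2 (1.03 ± 0.23), GstE9 (0.81 ± 0.19) and GstD1 (0.72 ± 0.17) were higher on the control diet too. For none of these 8 genes was the difference between the diets called.

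Of the antimicrobial peptide list, 8 of 9 tested genes were called lower at 0.15 M (median -2.17) beside 6 of 9 at 0.7 M (median -1.07). Over all tested genes 4.96% were called lower at 0.15 M and 25.7% at 0.7 M. AttA measured 2.65, 1.03, 3.36 and 1.04 in FOXO RNAi and 20.1, 13.5 and 29.6 in p53 RNAi on the control diet (-2.89 ± 0.28, adjusted p = 3.18e-07). Dro (-2.78 ± 0.36), DptB (-2.17 ± 0.26) and AttB (-2.19 ± 0.23) were lower as well, and for DptB the fall was smaller at 0.7 M (difference between the contrasts 1.1, adjusted p = 0.0299). Of the Toll-induced peptides 4 of 9 were called lower, and IM10 stood at 2.62, 3.34, 2.06 and 3.42 against 38.6, 10.5 and 80.3, with the p53 RNAi libraries spread over a wide range.

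Drs was named after its values were seen. At 0.15 M its means were 21.9 ± 4.01 in FOXO RNAi and 121 ± 59 in p53 RNAi (SD; -2.31 ± 0.36 SE, adjusted p = 7.39e-05), and at 0.7 M they were 20.5 ± 12.4 and 11.8 ± 4.32 (0.60 ± 0.33, adjusted p = 0.14). The difference between the contrasts was 2.91 ± 0.49 (adjusted p = 0.000260). Of the one-carbon enzymes 6 of 23 were lower at 0.15 M, among them pug (-1.07 ± 0.25), CG11899 (-0.95 ± 0.20) and Eip55E (-0.77 ± 0.23). Syt1 was lower on both diets (-0.79 ± 0.18 at 0.15 M).

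Lipid, metal and secretory genes had few calls on the control diet, as did all tested genes there (4.09% higher, 4.96% lower). At 0.15 M none of the fatty acid synthesis genes was called higher and 1 was called lower, 1 triglyceride gene was higher, no metal gene was higher and 1 was lower, and 2 of 29 secretory genes were lower. Lsd-2 measured 7.82, 11.7, 6.65 and 8.35 in FOXO RNAi and 7.66, 6.96 and 9.72 in p53 RNAi at 0.15 M (0.07 ± 0.20), and the difference between its contrasts was 1.03 (adjusted p = 0.0115). The same test was passed by CG4729 (0.94), CG8709 (0.93), Gpdh (0.97), Zw (0.86), Tsf1 (1.91), Fer2LCH (1.02), Mvl (0.91) and TRAM (-0.83). CG3523 (0.84, adjusted p = 0.11), desat1 (0.45, adjusted p = 0.25) and Ctr1B (0.60, adjusted p = 0.16) did not pass it.

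ImpL2 also depended on the diet. At 0.15 M it measured 1.99, 3.31, 1.77 and 2.03 in FOXO RNAi and 1.95, 1.88 and 2.27 in p53 RNAi, 0.09 ± 0.18 apart, and the contrasts differed by 1.48 (adjusted p = 0.000228). Lip4 did not follow, with 0.80 ± 0.20 at 0.15 M (adjusted p = 0.00946) and a difference between contrasts of -0.05. Xrp1 measured 2.27, 5.37, 2.15 and 2.95 against 4.52, 4.23 and 4.81 at 0.15 M, and its contrasts differed by 1.82 (adjusted p = 0.00230). PGRP-SC1a was one of the 11 genes called in opposite directions, lower at 0.15 M with 0.363, 0.337, 0.466 and 0.662 against 2.17, 0.965 and 4.22 (-1.14 ± 0.20, adjusted p = 0.000471).

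**Figure D5:**
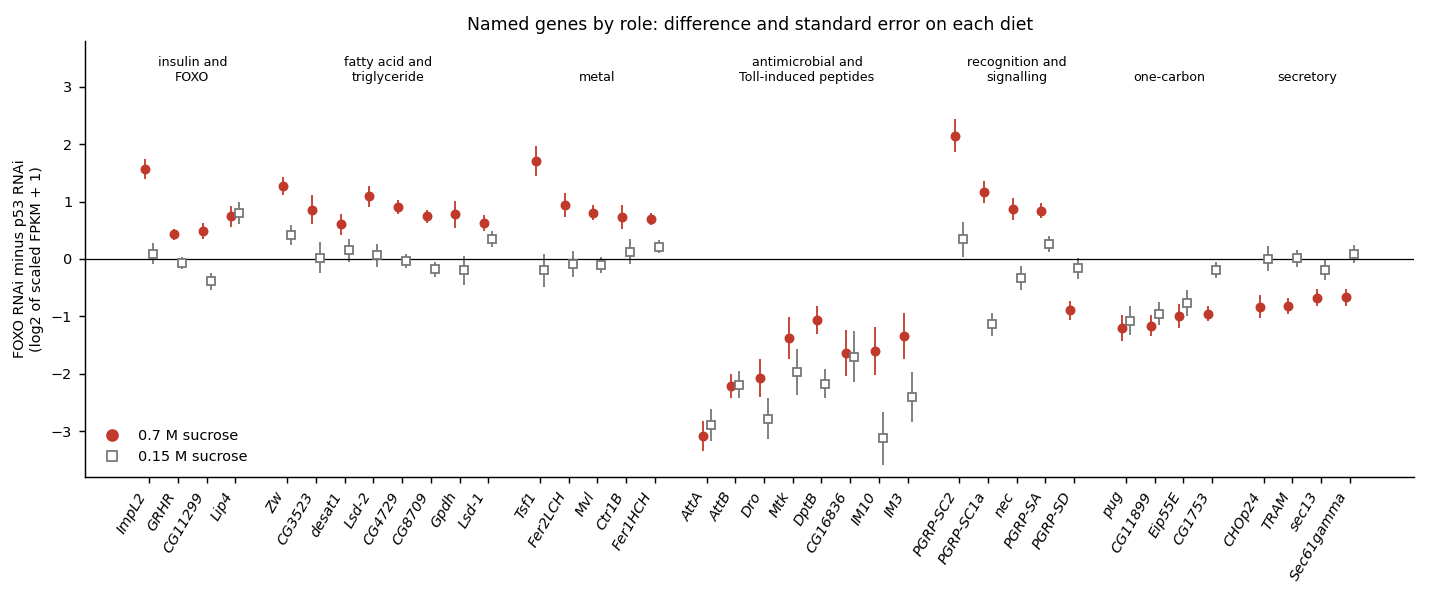
Points give the difference FOXO RNAi minus p53 RNAi (log2 of scaled FPKM plus 1) with its standard error for named genes grouped by role, filled red circles at 0.7 M and open grey squares at 0.15 M. All genes plotted were called at 0.7 M, so their distance from 0 on that diet was set by the choice. The 8 antimicrobial and Toll-induced peptide genes lie below 0 on both diets. Most lipid, metal and secretory genes plotted lie nearer to 0 at 0.15 M than at 0.7 M, an order that this choice favours.

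The largest changes between the diets were falls of the contrast. The transcript listed as noncoding_9129 measured 32.6, 32.8, 25.5 and 46.7 in FOXO RNAi and 1.75, 1.97 and 4.18 in p53 RNAi at 0.15 M, and 2.12, 32.9, 4.09 and 2.51 against 5.57, 23.8, 5.69 and 14.9 at 0.7 M, where library 2 was highest in both groups (difference between the contrasts -4.11, adjusted p = 0.00936). CG33333 (-3.35), CG14332 (-3.29) and noncoding_17366 (-3.09) also changed by more than 3 log2 units, all being higher in FOXO RNAi at 0.15 M. At 0.7 M noncoding_17366 was called lower (-1.26 ± 0.49, adjusted p = 0.0419), while CG33333 (adjusted p = 0.0537) and CG14332 (adjusted p = 0.0530) did not pass. LysS changed by -3.37 (adjusted p = 0.0460), a call lost under 12 of 23 alternatives, and CG7298, with 3.15 (adjusted p = 1.93e-05), was the rise among the 6.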

How the data were processed

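RNA was taken up in Trizol, ribosomal RNA was removed with RiboZero and the libraries were run on an Illumina HiSeq, per the labels. TopHat 1.3.2, Bowtie 0.12.7, Cufflinks 1.1.0 and the dm3 genome are named in the submitters' processing notes. The authors deposited FPKM values for 14659 genes in 1 table, scaled further to a fixed rank, a step read from the values and not given in the sources used here. Of its 61 value columns 31 were used (all r4 females of the 60100 experiment) and 30 were not used. Headings of the 0.7 M columns give the group but no replicate number, so libraries are numbered in column order and the numbers are names only. The labels list 62 samples, and 3 columns stand for p53 RNAi at 0.15 M. The table holds no counts, so depth was estimated from the 5% quantile of the product of value and length, taken as 1 fragment per library, and intervals for single values were not computed.

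The model was limma 3.58.1 (R 4.3.3) on log2(scaled FPKM + 1), which understates changes of low genes, with a mean for each of 8 groups, empirical Bayes with a mean-variance trend, and Benjamini-Hochberg adjustment of two-sided p-values over the 2521 genes whose mean over the 31 libraries was 1 or more. Calls are at an adjusted p below 0.05. Whether libraries came from separate sets of larvae is not given in the labels, so the p-values speak to variation from library to library alone, which may be technical. The targeted transcripts, most of them below the filter, were tested by exact two-sided permutation (numpy 2.4.6). Python 3.11.15, pandas 2.3.3, scipy 1.17.1 and matplotlib 3.10.9 were also used. The scripts were tested on simulated data.

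Of 896 members written for the 41 gene lists, 891 were found in the table, and 13423 table genes were matched to RefSeq for current symbols. Members and lists were chosen with earlier results of these data known, so list counts are descriptions. Genes were named by rule: the targeted and transgene-linked genes, the 15 largest differences in each direction with a mean of at least 5 and no overlap, up to 5 called members of each list (2 tested members where none was called), 6 genes for the difference between diets and 8 in each direction for both diets. The text stops early in some lists. Alternatives were a pseudocount of 0.1, other filters, median-ratio rescaling, the libraries of the contrast alone, limma's library weights (whose estimation stopped before convergence), no mean-variance trend, removal of a transcript-length trend, and leaving out each library. A planned search for a FOXO motif in promoters was not run because no sequence was at hand.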

Additional observations from a re-analysis of the deposited data

Results flagged for a closer look

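In 21 of 220 groups of 4 libraries examined over the named genes, 1 library stood further from the others than Dixon's 95% limit for the gap over the range of the group. Chance passes that limit in about 1 group in 20. Of these, 12 were FOXO RNAi library 2 and 9 were other libraries, all at 0.7 M. In FOXO RNAi library 2 the scaled FPKM was high for Dcr-2 (21.1), CG7298 (27.8), LysX (132), CG13840 (15.1), Acox57D-p (4.86), Fer1HCH (75.7), ref(2)P (6.73), Cp1 (134) and noncoding_9129 (32.9). It was low there for LysS (0.198), pug (6.44) and Syt1 (6.23). In p53 RNAi library 2 the value was high for CG13840 (3.27) and GstE9 (7.52) and low for CG8709 (0.534), Lsd-1 (37.3) and Cp1 (57.8). In p53 RNAi library 4 egr was low (0.47). FOXO RNAi library 4 was high for CG5321 (4.07), and FOXO RNAi library 3 was high for Dro (0.541, the other 3 listed at 0) and noncoding_17366 (3.11).

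For 55 of the 110 named genes the contrast of FOXO RNAi with p53 RNAi differed between the diets by limma's test of the difference itself, at an adjusted p under 0.05. Most named genes were chosen by their differences at 0.7 M, and 6 by this same test, so a high count was built into the choice. Over all 2521 tested genes 480 (19.0%) were called in that test. The values are the contrast at 0.7 M minus that at 0.15 M on the log2 scale. Among the largest rises they were CG7298 (3.15), CG1213 (2.64), CG11898 (2.37), CG15347 (2.37), Arc1 (1.79), LysX (1.85), CG10102 (1.7), CG18522 (2.14), CG33462 (2.28), PGRP-SC2 (1.8), CG13877 (1.8), CG5853 (1.3) and Rpd3 (1.66). In the insulin and damage lists and for white they were white (0.977), ImpL2 (1.48), CG11299 (0.87), GRHR (0.495) and Xrp1 (1.82). Lipid genes had Zw (0.861), Lsd-2 (1.03), CG4729 (0.938), Gpdh (0.974), CG8709 (0.927) and Acox57D-p (0.855). Serum and metal proteins had Tsf1 (1.91), Lsp1alpha (1.32), Fer2LCH (1.02), Fer1HCH (0.485) and Mvl (0.914), and immune genes DptB (1.1), PGRP-SC1a (2.3), nec (1.2), PGRP-SA (0.577) and TepII (1.23). Positive values were also found for Jafrac1 (0.852), RpL22 (1.36), ref(2)P (1.08) and Cp1 (0.733). The contrast was more negative at 0.7 M for LysS (-3.37), CG10814 (-2.59), CaBP1 (-2.1), 7B2 (-2.01), CG5321 (-1.31), CG4586 (-0.93), CG14375 (-0.882), PGRP-SD (-0.732), CG1753 (-0.761), zetaCOP (-1.25), CHOp24 (-0.839), TRAM (-0.827), Sec61gamma (-0.759), noncoding_9129 (-4.11), CG33333 (-3.35), CG14332 (-3.29) and noncoding_17366 (-3.09).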

How the results depend on the processing

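The count of genes called at 0.7 M (1030) ranged from 732 without FOXO RNAi library 2 to 1169 without FOXO RNAi library 4. It rose to 2137 of 9851 genes with no filter on low values and to 1617 with library weights, whose estimation stopped before convergence. The count at 0.15 M (228) ranged from 146 (without p53 RNAi library 1 of that diet) to 260 on leaving out 1 library, and was 363 with no filter and 1635 with weights. For the difference between diets (480) the range was 253 (without p53 RNAi library 3 at 0.15 M) to 715, with 302 without FOXO RNAi library 1 at 0.15 M, 1055 with no filter and 1721 with weights. On leaving out 1 library the foxo difference (0.021) ranged from -0.003 (without p53 RNAi library 2) to 0.046, and that of Dcr-2 (0.98, exact permutation p = 0.057) from 0.53 without FOXO RNAi library 2 to 1.26 without FOXO RNAi library 4, where it passed its test. Thor (0.02) turned to -0.067 with library weights and ranged from -0.15 (without p53 RNAi library 2) to 0.16, negative also without FOXO RNAi library 2 or 3. The causes were not tested.

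Of 103 named genes called at 0.7 M, 84 stayed called under every alternative in which they were tested. CG7298 and CG11898 were tested under 15 alternatives and the others under 16. Of the 103 genes, 19 were lost under at least 1 alternative and none changed sign. After rescaling 2 (Ice and alphaTry) were lost, and 7 were lost without FOXO RNAi library 2. No paired analysis was possible because the column headings at 0.7 M carry no replicate numbers. Without counts, depth is an estimate, and values well under 1 rest on few fragments.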
